A study of Homo sapiens with 6 samples.

Results

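EGF family growth factors and the ERBB receptors that bind them were followed in colon fibroblasts whose *LTBP2* transcript had been silenced. The members were the rows of the deposited count table whose symbol was 1 of 10 names, the receptor genes *EGFR*, *ERBB2* and *ERBB3* and the ligand genes *HBEGF*, *EREG*, *AREG*, *TGFA*, *NRG1*, *BTC* and *EGF*. Each name matched 1 row, so there were 10 members among 60663 genes. The cells were CCD18Co, an established line of normal human colon fibroblasts. Both groups were transfected with pooled siRNAs, aimed at *LTBP2* in the group siLTBP2 and at no gene in the group siNT, and total RNA was taken after 48 h. There were 3 libraries of each group, numbered 1 to 3. The labels do not say whether they came from separate cultures, so p-values measure the spread between these libraries, which may be technical.

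EGF family ligands are made as precursors anchored in the cell membrane, and proteases of the ADAM family release the active factor. The ligands bring ERBB receptors together in pairs. EGFR binds EGF, TGF-α, amphiregulin, epiregulin, betacellulin and HB-EGF, ERBB3 binds neuregulins such as the product of *NRG1*, and ERBB2 has no known ligand and acts as a partner of the others. Paired receptors recruit adaptors such as SHC1 and GRB2, which start the RAS-ERK cascade, and this cascade induces its own inhibitors. In the gut wall, fibroblasts are a known source of neuregulin and of other ligands for the neighbouring epithelium.

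The libraries held between 44663424 and 53576899 counts on genes, and *LTBP2* itself was at 30.4% of its siNT level in siLTBP2 (log2 fold change -1.72 with a standard error of 0.15, edgeR quasi-likelihood adjusted p = 6.6e-05). Levels are given in CPM, counts per 1000000 counts of the library after TMM scaling. A gene is called here when its p-value from that test, adjusted by Benjamini-Hochberg over the 16920 genes tested, is below 0.05, and 19.3% of all genes tested were called. The fibroblast label was checked against markers. The summed level of 10 fibroblast markers, such as *COL1A1* and *VIM*, lay between 9960 and 13200 CPM in siNT and between 10100 and 14400 CPM in siLTBP2. By contrast, 8 epithelial markers summed to between 1.86 and 4.56 CPM in siNT and between 1.84 and 2.66 CPM in siLTBP2, most of it from *CLDN4*, with *KRT20* at 0 throughout and *EPCAM* at no more than 2 counts in any library. Of 6 immune markers, summing to at most 0.613 CPM in any library, *MS4A1* was at 0. The 5 endothelial markers summed to between 59.9 and 83.6 CPM over the libraries, nearly all of it from *TEK*, while *PECAM1* had at most 12 counts and *CDH5* at most 2. In bulk RNA, fewer cells with a transcript and less of it per cell cannot be told apart.

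Among the members, *EGFR* was the only one called, and it was higher in siLTBP2. Its start region is printed here because it belongs to the member that changed, and those of *EREG* and *AREG* because these ligand genes are neighbours on chromosome 4 of which only *AREG* had enough counts to be tested. Each run holds 250 bases before and 50 after an annotated transcription start, read 5′ to 3′ on the gene's strand from the RefSeq table of build GRCh38.p14. Capitals mark matches on either strand to GGGCGG (the SP1 box), TGACGTCA (the cAMP response element), TGANTCA (the AP-1 site) or TATAAA, and matches may overlap.

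*EGFR*, chr7:55018767-55019066, plus strand: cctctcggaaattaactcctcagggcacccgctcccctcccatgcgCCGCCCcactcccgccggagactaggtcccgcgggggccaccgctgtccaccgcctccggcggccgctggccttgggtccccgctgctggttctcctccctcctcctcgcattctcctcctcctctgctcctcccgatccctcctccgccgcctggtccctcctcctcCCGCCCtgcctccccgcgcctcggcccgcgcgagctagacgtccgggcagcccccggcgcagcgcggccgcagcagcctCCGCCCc
*EREG*, chr4:74364895-74365194, plus strand: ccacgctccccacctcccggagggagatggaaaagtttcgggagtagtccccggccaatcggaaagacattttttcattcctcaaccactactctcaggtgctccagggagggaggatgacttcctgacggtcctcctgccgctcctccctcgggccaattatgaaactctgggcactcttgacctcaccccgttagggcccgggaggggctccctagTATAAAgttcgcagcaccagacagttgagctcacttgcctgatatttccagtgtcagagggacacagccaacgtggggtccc
*AREG*, chr4:74444886-74445185, plus strand: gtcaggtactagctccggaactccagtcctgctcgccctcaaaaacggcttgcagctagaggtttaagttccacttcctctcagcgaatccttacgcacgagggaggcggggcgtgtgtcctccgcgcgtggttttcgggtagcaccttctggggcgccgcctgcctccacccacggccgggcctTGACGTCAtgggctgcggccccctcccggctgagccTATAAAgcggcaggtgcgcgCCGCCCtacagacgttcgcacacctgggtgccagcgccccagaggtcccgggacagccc

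The *EGFR* region printed was 75.3% G and C, with 3 matches to the SP1 box and none to the other letters. GGGCGG was present in 45% of the 35116 start regions in the table. The table lists a second *EGFR* start, further into the gene, whose region was 42% G and C and held 2 matches to the AP-1 site, present in 7.71% of all start regions, 2 to TATAAA and none to the SP1 box. *EREG* and *AREG* each held 1 match to TATAAA, found in 11.5% of all start regions. The *AREG* region also held 1 match to the SP1 box and 1 to the cAMP response element, the latter of which 1.85% of start regions have, and the *EREG* region held neither. A match is a description of the letters and not a bound site.

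To set the members side by side, CPM was divided by the length of each gene's merged exons in kilobases (FPKM). In siNT, *EGFR* had the highest level, with 32.5 ± 3.87 FPKM (SD, n = 3). It was followed by *ERBB2*, at 10.8 ± 0.707 FPKM, and by *NRG1*, the most abundant ligand, at 6.79 ± 1.71 FPKM. *HBEGF*, which encodes the heparin-binding member of the family, had 2.7 ± 0.967 FPKM. The gene for EGF itself and *AREG*, which encodes amphiregulin, were lower, at 0.574 ± 0.0653 and 0.449 ± 0.248 FPKM, and these neighbours overlapped between libraries. *ERBB3* had 0.0309 ± 0.011 FPKM and *EREG* 0.00234 ± 0.00205 FPKM. Down to *EREG*, each other pair of neighbours in this order was separated in siNT, every library of the upper gene lying above every library of the lower. In siLTBP2 the ranges of *NRG1* and *HBEGF* also overlapped. With the length of the canonical transcript in place of merged exons, the order of the members in siNT was the same, but the levels were higher. The factor was largest for *ERBB2*, at 24.5 FPKM, and *ERBB3*, at 0.0644 FPKM.

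**Figure D1:**
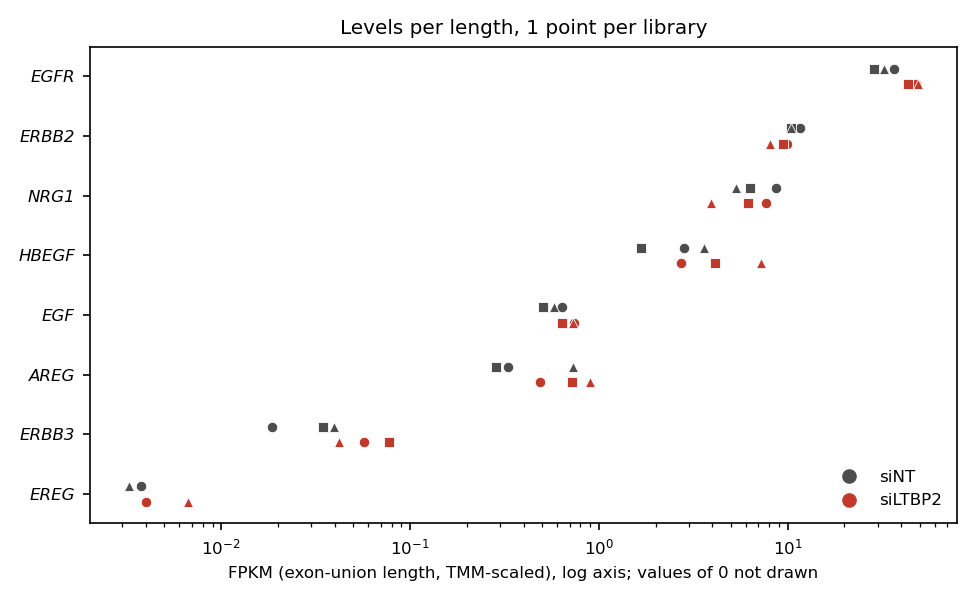
Level of each member per length in FPKM (horizontal log axis), 1 point per library, grey for siNT and red for siLTBP2 (circles, squares and triangles are replicates 1, 2 and 3). *EGFR* is highest with 32.5 FPKM on average in siNT and *EREG* lowest with 0.00234 FPKM, libraries at 0 are not drawn, and *TGFA* and *BTC*, at 0 in siNT, are left out.

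Of the 10 members, 7 passed the filter on low counts, and 1 of these 7 was called, or 14.3%, against the 19.3% of all genes tested. That 1 was higher in siLTBP2, as were 9.76% of all genes tested, and no member was called lower, against 9.51% of all genes. At the study's thresholds, an adjusted p below 0.01 and a change of more than 2-fold, 2.57% of all genes passed and no member did, in the quasi-likelihood test, the likelihood ratio test or DESeq2. The unadjusted p was below 0.05 in 4 of the 7 members tested and in 32.3% of all genes tested. The groups did not overlap in 3 members, the 3 receptors, while they did not overlap in 37% of all genes tested. With same-numbered libraries as a block, 6 members were called, while the count over all genes rose from 3261 to 6131.

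*EGFR* (ENSG00000146648) lies on the plus strand of chromosome 7 of GRCh38, from 55019017 to 55211628. It was at 580, 457 and 517 CPM in siNT and at 760, 688 and 778 CPM in siLTBP2. Every siLTBP2 library was above every siNT library. The mean rose from 518 ± 61.6 to 742 ± 47.3 CPM (SD, n = 3), a 1.43-fold change (log2 fold change 0.52, standard error 0.11, adjusted p = 0.0081). With the exact permutation test over the 6 libraries, p was 0.1, the smallest that 3 against 3 allow, two-sided. The call held under every alternative run, with a log2 fold change between 0.44 and 0.6 when 1 library was left out. *EGFR-AS1*, a noncoding gene that shares exon bases with *EGFR* on the other strand, had at most 5 counts in any library.

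*ERBB2* (ENSG00000141736), on chromosome 17 from 39687914 to 39730426, encodes the receptor without a ligand. It had 120, 107 and 107 CPM in siNT and 103, 97.2 and 83.6 CPM in siLTBP2, where every library was below those of siNT. This was a log2 fold change of -0.24 (standard error 0.1, 95% interval from -0.45 to -0.02, not adjusted for the number of genes), and the adjusted p of 0.12 did not pass. Blocked by replicate number, the value was again -0.24, and it was called (quasi-likelihood adjusted p = 0.0087). On the other strand, *MIEN1* shares 571 exon bases with *ERBB2* and *PGAP3* shares 144. Both were called lower, with log2 fold changes of -0.42 and -0.41 (adjusted p = 0.012 and 0.043). How the counting treated strand is not stated in the sources used here, and the part of shared reads in these values was not tested.

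*ERBB3* (ENSG00000065361), on chromosome 12 from 56076799 to 56103505, encodes the neuregulin receptor with a weak kinase. It was barely present, with 10, 20 and 25 counts in siNT and 29, 43 and 26 counts in siLTBP2. In CPM the values were 0.216, 0.405 and 0.464 in siNT and 0.665, 0.909 and 0.493 in siLTBP2. The siLTBP2 libraries were all above the siNT libraries, by a narrow margin for siLTBP2 replicate 3. The log2 fold change of 0.91 (standard error 0.35, 95% interval from 0.13 to 1.69) had an adjusted p of 0.1, so no change was called. The fit with same-numbered libraries as a block did call it, with 0.9 (quasi-likelihood adjusted p = 0.036).

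No ligand was called among the 4 that were tested, by edgeR's quasi-likelihood test, its likelihood ratio test or DESeq2, and 1 of the 4, *HBEGF*, had an unadjusted p below 0.05. *NRG1* (ENSG00000157168), on chromosome 8 from 31639222 to 32855666, was at 185, 136 and 114 CPM in siNT and at 164, 131 and 83.7 CPM in siLTBP2. These groups overlapped widely, and the spread within each was larger than the difference between their means, 145 ± 36.6 and 126 ± 40.3 CPM (SD, n = 3). The log2 fold change was -0.2 (95% interval from -0.7 to 0.3, adjusted p = 0.59). In this fit without a block, it was 0.01 without siNT replicate 1 and 0.03 without siLTBP2 replicate 3. Each siLTBP2 library was nevertheless below the siNT library of the same number. With same-numbered libraries as a block, the log2 fold change was -0.22 (quasi-likelihood adjusted p = 0.022).

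*HBEGF* (ENSG00000113070), on the minus strand of chromosome 5 from 140332843 to 140346603, had 8.43, 5.02 and 10.8 CPM in siNT and 8.17, 12.3 and 21.6 CPM in siLTBP2. The highest value was that of siLTBP2 replicate 3, while siLTBP2 replicate 1 lay within the range of siNT. Its log2 fold change came to 0.8 (standard error 0.33, 95% interval from 0.06 to 1.54, adjusted p = 0.13). It was 1.07 without siLTBP2 replicate 1, where the gene was called (adjusted p = 0.028), and 0.34 without siLTBP2 replicate 3 (adjusted p = 0.42), so that these libraries decide its value. Over the alternatives run, the adjusted p ranged from 0.42 down to 2.4e-06, the latter with no filter on low counts. The replicate block gave a log2 fold change of 0.76 (quasi-likelihood adjusted p = 1e-04).

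*AREG* (ENSG00000109321), on chromosome 4 from 74445136 to 74455005, had 25, 23 and 65 counts in siNT and 35, 56 and 78 counts in siLTBP2. These are 0.541, 0.466 and 1.21 CPM in siNT and 0.803, 1.18 and 1.48 CPM in siLTBP2, and siNT replicate 3 lay above 2 of the siLTBP2 libraries. The log2 fold change was 0.64 (95% interval from -0.18 to 1.46, adjusted p = 0.27). Without siNT replicate 3 it was 1.21 and called (adjusted p = 0.035), and without siNT replicate 2 it was 0.4 (adjusted p = 0.55), the ends of its range with 1 library left out. Each siLTBP2 library of *AREG* was above the siNT library of the same number. The fit with that block called *AREG*, with 0.69 (quasi-likelihood adjusted p = 0.039). *EGF* (ENSG00000138798), also on chromosome 4, from 109912883 to 110013766, had 4.87, 3.87 and 4.4 CPM in siNT and 5.64, 4.86 and 5.58 CPM in siLTBP2. The groups touched at siLTBP2 replicate 2 and siNT replicate 1, and the log2 fold change of 0.29 did not pass (95% interval from -0.04 to 0.63, adjusted p = 0.21). For *EGF* too, each siLTBP2 library was above the siNT library of the same number. The blocked fit gave 0.3 and did not call it (quasi-likelihood adjusted p = 0.081).

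**Figure D2:**
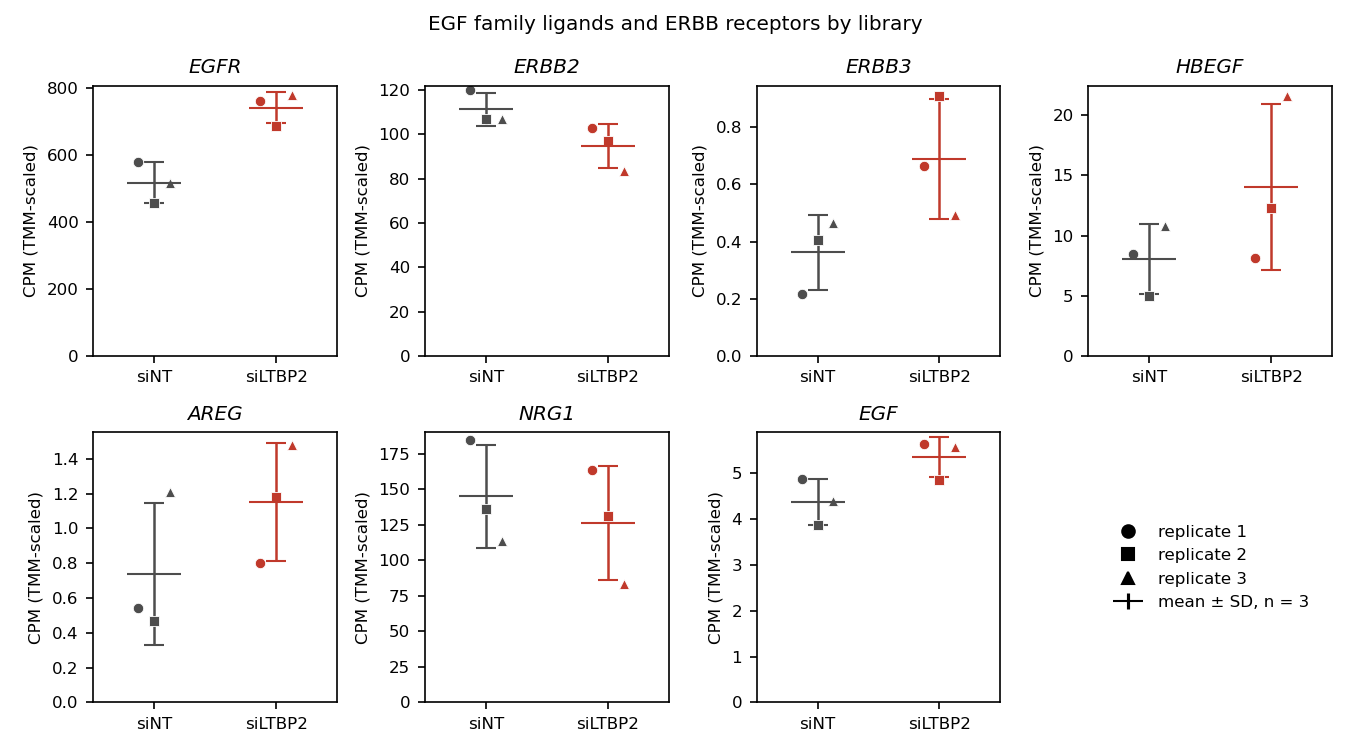
CPM of the 7 tested members (vertical axes from 0), with 1 symbol per library and the mean ± SD of 3 libraries per group, grey for siNT and red for siLTBP2. The siLTBP2 libraries of *EGFR* lie between 688 and 778 CPM and those of siNT between 457 and 580 CPM, while the groups overlap for each of the 4 ligands.

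The other 3 ligand genes were at or near the limit of detection and were not tested. *TGFA*, on chromosome 2, had 0 counts in every library, which allows a level of up to 0.0688 CPM in the shallowest library and 0.0556 CPM in the deepest, for counting error only. *BTC*, which encodes betacellulin, had 2 counts in siLTBP2 replicate 1 and none elsewhere. *EREG*, which encodes epiregulin and starts at 74365145 on chromosome 4, had 1, 0 and 1 counts in siNT and 1, 0 and 2 in siLTBP2. *EREG*, *AREG* and *BTC* lie in 1 stretch of chromosome 4, and of these only *AREG* passed the filter. The rest of the family was equally low, with *ERBB4* and *EPGN* at no more than 3 counts in any library, *NRG2* at no more than 8, *NRG3* at no more than 1 and *NRG4* at 0. None of these 5 genes was tested.

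**Figure D3:**
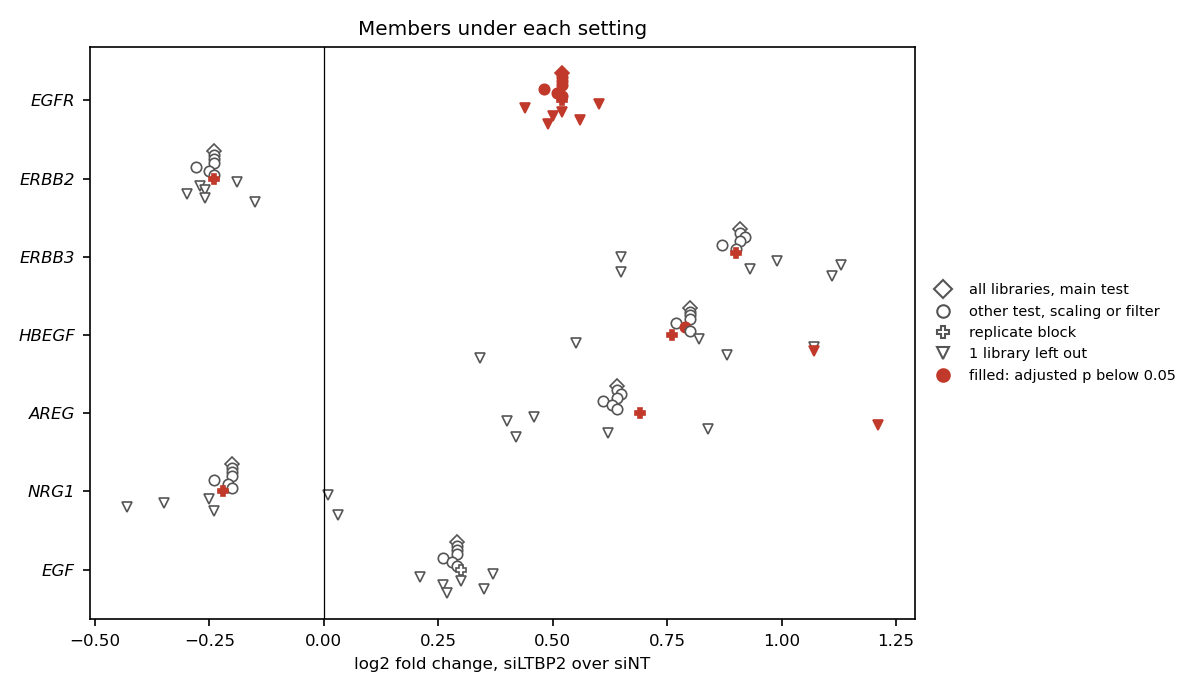
Log2 fold change of the 7 tested members (horizontal axis) under each test, scaling, filter, the replicate block and with 1 library left out, filled in red where the adjusted p was below 0.05. *EGFR* is filled under every setting, and *NRG1* reaches 0.01 and 0.03 when siNT replicate 1 or siLTBP2 replicate 3 is left out.

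Other genes of EGF receptor signalling were taken from lists of 66 genes, of which 61 were tested and 31 were called, 23 higher and 8 lower. That is 50.8% of those tested, beside 19.3% of all genes, and their median log2 fold change was 0.15 against -0.01 for all genes. The lists were chosen with earlier results of these data known. Their genes were not matched to all genes by count level, so these shares are a description only. Most of these genes also serve other growth factor receptors. When 1 library was left out, between 26 and 30 of them were called.

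The ligand shedding list held 9 genes, of which 5 were higher in siLTBP2 and 1 was lower. These were 66.7% of the list, beside 19.3% of all genes tested, and the median log2 fold change of the list was 0.47. *ADAM17*, the main protease that releases TGF-α, amphiregulin and HB-EGF, had 73.8, 73.7 and 80.9 CPM in siNT and 124, 118 and 133 CPM in siLTBP2. It rose by 0.71 on the log2 scale (standard error 0.08, adjusted p = 0.00034), with no overlap. *ADAM12*, linked to HB-EGF release, went from 4.59 ± 0.278 to 10.3 ± 1.04 CPM (SD, n = 3), and *ADAM9* from 494 ± 7.51 to 684 ± 35.5 CPM. *NRDC*, a metalloprotease that promotes shedding by ADAM17, rose from 162 ± 5.15 to 232 ± 9.06 CPM. *TIMP3*, an inhibitor of ADAM17, rose as well, with 189, 110 and 117 CPM in siNT and 345, 275 and 255 CPM in siLTBP2 (log2 fold change 1.07, adjusted p = 0.0034). Proteases and an inhibitor thus rose together. *ADAM10*, the protease for EGF and betacellulin, was not called, with a mean of 593 ± 62.3 in siNT against 492 ± 66.6 CPM in siLTBP2 (adjusted p = 0.16). *RHBDF2*, an escort of ADAM17 to the cell surface, was the lower gene, from 1.9 ± 0.568 to 0.837 ± 0.311 CPM (log2 fold change -1.19, adjusted p = 0.025). The call was lost when siNT replicate 1 (-0.93) or 2 (-1.24), or siLTBP2 replicate 3 (-0.9), was left out.

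Most of the adaptors and kinases that carry the signal did not pass the test. Of 22 genes, 3 were called higher and 2 lower, or 22.7%, beside 19.3% of all genes tested. The median log2 fold change was 0.04. The largest change was in *SHC1*, an adaptor that binds the activated receptors, with 374, 356 and 367 CPM in siNT and 210, 232 and 203 CPM in siLTBP2 (log2 fold change -0.77, standard error 0.09, adjusted p = 0.00026). *MAP2K1*, a kinase of the ERK cascade, rose by 0.53 on the log2 scale (adjusted p = 0.0099). The adaptor gene *GRB2* had a log2 fold change of -0.09 and was not called. The calls of *STAT3* (0.33) and of *SOS1* (-0.32), which loads RAS with GTP, depended on single libraries. *STAT3* lost its call without siNT replicate 2 or 3, or siLTBP2 replicate 2 (0.3 each), or siLTBP2 replicate 1 (0.28). *SOS1* lost it without siNT replicate 1 (-0.24) or 3 (-0.34), or siLTBP2 replicate 1 (-0.37), 2 (-0.33) or 3 (-0.27). With siNT replicate 3, siLTBP2 replicate 1 or siLTBP2 replicate 2 left out, 3 genes of the list were called in place of 5.

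The feedback inhibitor list held the largest share of called genes, 75%, beside 19.3% of all genes tested, with 8 of 16 higher and 4 lower. *DUSP6*, *DUSP5* and *DUSP4*, phosphatases that act on ERK or other MAP kinases, all rose. *DUSP6* went from 37.6, 33.7 and 43.1 CPM in siNT to 79.6, 84.8 and 83.6 CPM in siLTBP2 (log2 fold change 1.12, standard error 0.1, adjusted p = 8e-05). *DUSP5* went from 9.97 ± 1.44 to 34 ± 11.9 CPM (SD, n = 3), with siLTBP2 replicate 3 highest, and *DUSP4* from 42.4 ± 8.38 to 81.1 ± 5.01 CPM. The Sprouty family, which restrains RAS-ERK signalling, was divided. *SPRY2* rose from 31.5 ± 8.35 to 67.9 ± 20.7 CPM and *SPRY4* from 78.3 ± 13.3 to 133 ± 16.9 CPM, whereas *SPRY1* fell from 56.9 ± 3.95 to 37.1 ± 8.45 CPM (adjusted p = 0.015). The related *SPRED1* and *SPRED2* rose by 0.41 and 0.43 on the log2 scale.

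Inhibitors that act on the receptors themselves moved both ways. *LRIG1*, a membrane protein that promotes the breakdown of ERBB receptors, had 16.9, 19.7 and 20.7 CPM in siNT and 36.6, 42.3 and 41.9 CPM in siLTBP2 (log2 fold change 1.08, adjusted p = 0.00015). *CBL*, a ubiquitin ligase that marks activated EGFR for degradation, fell from 220, 184 and 201 CPM to 130, 133 and 134 CPM (log2 fold change -0.61, adjusted p = 0.0011). Its relative *CBLB* fell from 19.6 ± 3.74 to 10.1 ± 1.63 CPM (SD, n = 3). In each of these 3 genes the groups did not overlap, and neither did they in 37% of all genes tested. *ERRFI1*, an inhibitor of the EGFR kinase, was not called (log2 fold change -0.27, adjusted p = 0.34). *RNF41*, a ligase for ERBB3, was called lower at -0.29. It lost the call without siNT replicate 1 (-0.24) or 3 (-0.29), or siLTBP2 replicate 1 (-0.31), 2 (-0.29) or 3 (-0.28).

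Among 14 genes that ERK signalling is known to induce or that are used as its readouts, 7 were higher and 1 was lower. These were 57.1% of the list, beside 19.3% of all genes tested, and the median log2 fold change of the list was 0.48. The ETS factors *ETV1*, *ETV4* and *ETV5* rose without overlap, where 37% of all genes tested had no overlap in either direction. *ETV1* was at 17.9, 15.6 and 21.5 CPM in siNT and at 56.8, 52.4 and 45.5 CPM in siLTBP2 (log2 fold change 1.49, standard error 0.13, adjusted p = 7.5e-05). *ETV4* went from 21.2 ± 4.94 to 46.6 ± 0.333 CPM and *ETV5* from 63.5 ± 11.5 to 118 ± 4.89 CPM (SD, n = 3). The early response gene *IER2* rose from 30.7 ± 3.63 to 53.1 ± 8.17 CPM, and the ephrin receptor gene *EPHA2* from 148 ± 23.1 to 234 ± 28.5 CPM. Other early response genes of the list did not pass: *EGR1* had a log2 fold change of -0.45 (adjusted p = 0.15), *FOS* one of 0.52 (adjusted p = 0.11) and *MYC* one of -0.12 (adjusted p = 0.49). *EPHA4*, a second ephrin receptor gene, was called lower (-0.86), and lost its call without siNT replicate 1 (-0.59) or siLTBP2 replicate 2 (-0.86). *FOSL1*, a subunit of AP-1, was called higher (0.75), but not without siNT replicate 1 (0.69) or 2 (0.58). The cyclin gene *CCND1* (0.45) was not called without siNT replicate 2 (0.32) or 3 (0.48), or siLTBP2 replicate 1 (0.45) or 2 (0.42).

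**Figure D4:**
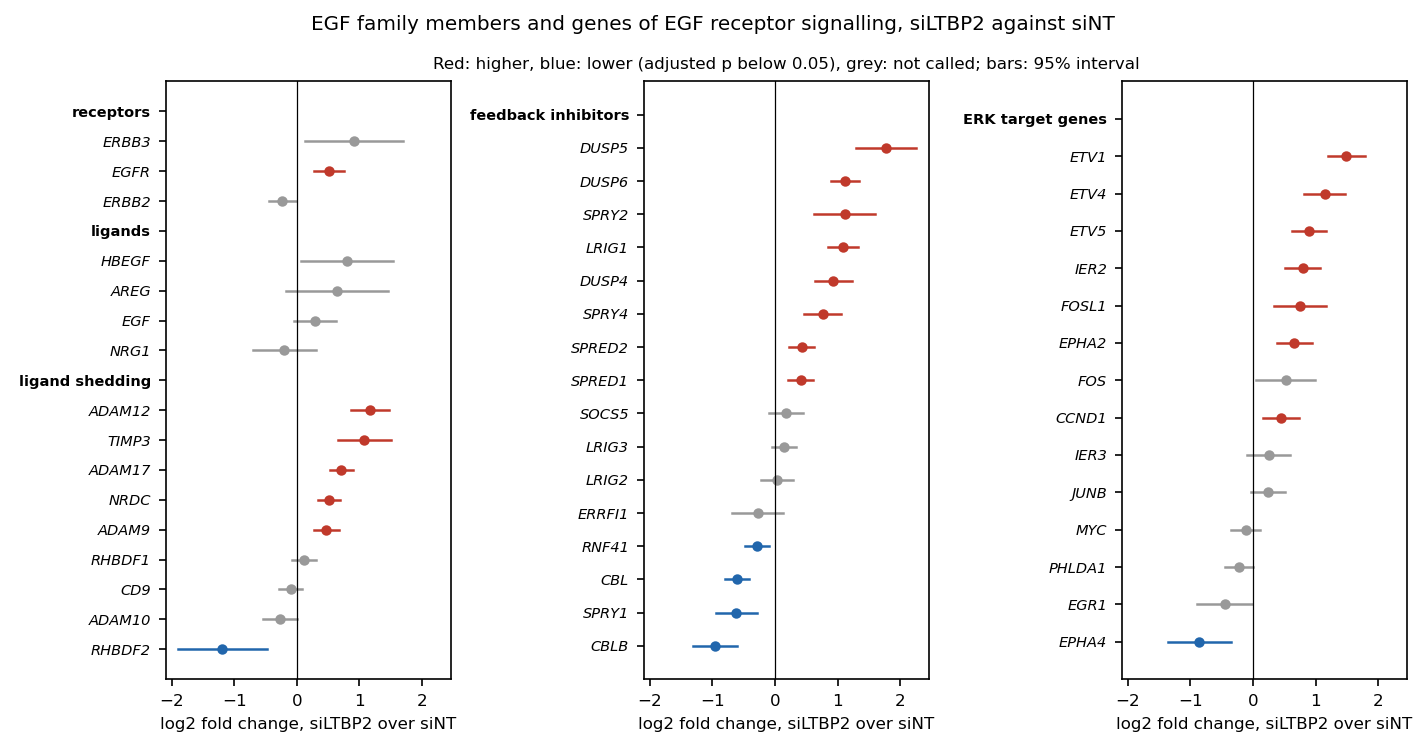
Log2 fold change of siLTBP2 over siNT (horizontal axis) with its unadjusted 95% interval for the 7 tested members and the tested genes of the ligand shedding, feedback inhibitor and ERK target lists. Red genes were called higher, blue genes lower and grey genes not called, and the feedback inhibitors range from 1.77 for *DUSP5* to -0.96 for *CBLB*.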

How the data were processed

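RNA sequencing of 6 libraries of CCD18Co fibroblasts was used, 3 siNT and 3 siLTBP2. The authors prepared stranded libraries depleted of ribosomal RNA, aligned them to GRCh38 with STAR (2.7.1a in the submitters' processing notes, 2 passes) and deposited the unnormalised gene counts of HTSeq-count (0.11.2). In the sources used here, strand setting and Ensembl release are not given. Groups were compared with the two-sided quasi-likelihood test of edgeR 4.0.16 (R 4.3.3) without a block, after filterByExpr and TMM scaling, with Benjamini-Hochberg adjustment over all genes tested. The study's methods name the likelihood ratio test, run here as an alternative beside DESeq2 1.42.0. Each standard error was obtained from the log2 fold change and the F statistic. Exon lengths came from GENCODE 44, which holds 60462 of the 60663 identifiers, 95.7% with the same start.

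The members and gene lists were chosen with earlier results of these data known. Named were *LTBP2*, all members, genes that share exon bases with them, and called genes of each list, beside examples that were not called, picked after their values were seen. Counts of siLTBP2 against siNT were simulated with independent libraries, where 196 of the 16654 genes run were changed, 2-fold or 4-fold. There the quasi-likelihood test recovered 71.3% of 2-fold and 99% of 4-fold changes, with 4% of its calls false. Of the calls of the likelihood ratio test and of DESeq2, 10.5% and 10.8% were false. Smaller changes, such as that of *EGFR*, and a larger share of changed genes were not simulated. Libraries of one group differed by more than sampling noise (chi-square per degree of freedom at least 27.7). Same-numbered libraries deviated together with correlations of 0.3, 0.08 and 0.43, and libraries of unlike number with correlations between -0.39 and 0.1. The comparison was planned with group only, and a block by replicate number was run as an alternative. Some genes of the adaptor and cascade list are counted but not reported here by name.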

Additional observations from a re-analysis of the deposited data

How the results depend on the processing

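The *LTBP2* and *EGFR* changes kept their direction and call under every alternative, and no member passed the study's thresholds in any of them. The count of called members, 1 with all libraries, was 2 with no low-count filter and 1 to 2 with 1 library left out. Same-numbered samples share a replicate number and have consecutive library names, and the labels do not say whether they were handled together. With the replicate block 6 members were called, *EGFR*, *ERBB3*, *HBEGF* and *AREG* higher and *ERBB2* and *NRG1* lower. In that fit the count over all genes rose from 3261 to 6131. In their deviations from the group mean, 5 of the 6 libraries correlated best with the library of their own number. The exception, siNT replicate 2, had 0.08 with its own number and 0.1 with siLTBP2 replicate 1. Deviations within a group sum to 0 and each pair counts for both of its libraries, so these are not independent results. *NRG1* reversed to 0.01 without siNT replicate 1 and to 0.03 without siLTBP2 replicate 3, within a range of -0.43 to 0.03 with 1 library left out. With 1 library left out, 3 to 4 adaptor and cascade genes were called in place of 5, and 2158 to 2781 genes of all. With no low-count filter, 680 genes passed the study's thresholds in place of 434. The causes were not tested. Levels per length moved with the canonical transcript length, in siNT to 52.3 FPKM for *EGFR*, 24.5 for *ERBB2*, 12.1 for *NRG1*, 0.685 for *EGF* and 0.0644 for *ERBB3*, without a change of order. Counts of *ERBB3* were at most 43 and of *AREG* at most 78 in any library, and *EREG*, *BTC* and *TGFA* were too low to be tested.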

Other observations

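The word GCACCCA, which occurs in the 3′ UTR of *LTBP2*, was counted in the 3′ UTR of each gene's canonical transcript (GENCODE 44). It was carried over from an earlier report, with earlier results of these data known, so the values below are a description only. The median log2 fold change was -0.15 over the 1455 tested genes that carry it and 0.02 over 10859 others. None of the 10 members carried it, where 11.8% of the genes tested with a 3′ UTR did. Of the 61 signalling genes tested, 8 carried it, or 13.1%. Of the 8 signalling genes called lower, 3 carried it, *CBL*, *RNF41* and *SOS1*, and of the 23 called higher 2 did, *TIMP3* and *SPRED1*. Among the 30 not called, 3 carried it. The calls of *RNF41* and *SOS1* depended on single libraries. *SHC1*, *CBLB* and *SPRY1*, which fell, had no copy. The part of the word in these values was not tested. The sites of the 3 lower genes are shown beside that of *LTBP2*, on build GRCh38, in the sense of the transcript, with the word in capitals.

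*LTBP2*, chr14:74500045-74500071, minus strand: atgggatacaGCACCCAtctacaaaga
*CBL*, chr11:119308085-119308111, plus strand: gctttttcaaGCACCCAtgtctgtaaa
*RNF41*, chr12:56205866-56205892, minus strand: aaaggtgtagGCACCCActgggtctac
*SOS1*, chr2:38984899-38984925, minus strand: ggaaatgcagGCACCCAatgtgaaaag

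*PDGFRB*, a receptor gene of fibroblasts, was the 1 called gene among 10 fibroblast markers. It fell from 168 ± 9.69 to 110 ± 13.3 CPM (SD, n = 3), a log2 fold change of -0.6 (adjusted p = 0.0025), and it carries 1 copy of the same word.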
